A study of Mus musculus with 6 samples.

Results

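Glycolysis and hypoxia genes were followed across 6 libraries of mouse bone marrow. The set holds 34 genes, listed by name with earlier results of these data known, as glycolytic enzymes, glucose and lactate transporters and targets of hypoxia-inducible factor (HIF), and found by symbol among the 24421 genes of the deposited count table. All 34 had a row, and 33 passed the filter on low counts that left 13803 genes for testing. The exception was Eno1. The cells came from femurs of C57BL/6 mice that carry Dek -/-, a deletion shared by every library, so the controls lack endogenous DEK too. The marrow was first depleted of cells bearing lineage markers and then given vehicle (3 libraries) or exogenous DEK (3 libraries). DEK is a nuclear chromatin protein that can also be released from cells, and the study compared transcripts with and without it added from outside. The form and dose of DEK, the duration and the age of the animals are not stated in the sources used here, nor is whether equal replicate numbers share an animal, so p-values measure the spread between these libraries, which may be technical.

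Glycolysis splits glucose into pyruvate in the cytosol and makes ATP without oxygen. Glucose enters through facilitative transporters, is trapped by hexokinase, passes the regulated phosphofructokinase step, and ends as pyruvate, which lactate dehydrogenase can turn into lactate for export. HIF is a dimer whose alpha subunit is marked for destruction by oxygen-dependent prolyl hydroxylases. When oxygen is low the alpha subunit persists, and most genes of the pathway are known to be induced. Myeloid cells also raise glycolysis and HIF1A on inflammatory activation, and neutrophils are known to depend heavily on glycolysis.

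Depth ran from 34875736 to 49128378 counts per library. Dek itself had 672 to 869 counts in every library. The labels do not say which exons were removed, so this total does not check the genotype. Stem and progenitor markers were detected (10 of 10 tested, 489 to 1011 CPM summed), beside markers of mature cells such as eosinophils (0.337 to 1.43% of counts after scaling). CPM are counts per 1000000 counts of the library after scaling. The ribosomal RNA gene Rn45s took 4.89% of counts in vehicle replicate 1 and 0.159 to 0.331% in the others. Both libraries numbered 3 stood apart in neutrophil markers, whose 11 genes with a row took 6.78% of counts with vehicle and 6.48% with DEK, against 0.635 to 0.831% in the other 4 libraries. Both also had higher summed erythroid markers than the other 4. Their summed eosinophil, basophil and mast cell, B lineage, dendritic cell, and stem and progenitor markers were lower. In bulk RNA, fewer cells of a type and less RNA per cell cannot be told apart.

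Among the 33 tested members, the clearest differences between DEK and vehicle were in a glucose transporter gene and the gene of the HIF alpha subunit. Slc2a1, which encodes the glucose transporter GLUT1, and Hif1a, which encodes the oxygen-regulated subunit of HIF, were higher in all 3 DEK libraries than in any vehicle library. Within pairs of equal replicate number, Slc2a1 rose 1.61-fold and Hif1a rose 1.53-fold. Slc2a3, the other glucose transporter gene of the set, did not pass the threshold. No enzyme of glycolysis passed it, and neither did any of the 11 genes listed here as HIF targets. That list leaves out the enzymes and transporters, Slc2a1 among them, though most genes of the pathway are known to be induced through HIF. In the main test, which ignores replicate numbers, 0 of 33 members had an adjusted p under 0.05 (edgeR), as did 0 of 13803 genes (0%). At an unadjusted p under 0.05 the main test held 2 members (6.06%), against 360 genes or 2.61% of all. The 2 members were Slc2a1 and Hif1a. With the replicate number as a block, 2 of 33 members rose (6.06%) and 0 fell, against 1.28% of all genes called in either direction (120 higher or 0.869%, and 57 lower or 0.413%). At an unadjusted p under 0.05 the blocked test held 11 members (33.3%), against 11.5% of all genes. The median log2 fold change was 0.08 over members and 0.00 over all genes tested in the main fit, with 21 members above 0 and 12 below. With DEK, 12 members were higher in all 3 pairs and 5 were lower, against 16.3% and 17.9% of all genes. Medians of single pairs were -0.03, 0.11 and 0.16 for members in pairs 1, 2 and 3.

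**Figure D1:**
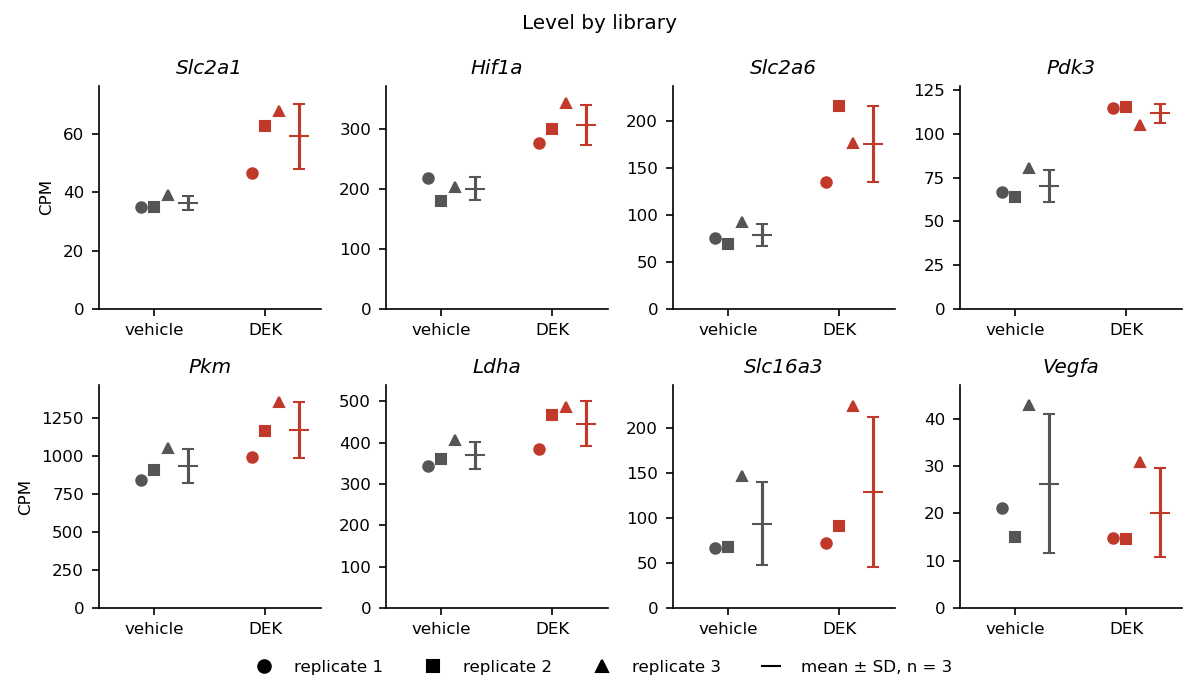
Level by library in CPM (vertical axis, from 0) for 6 members and for Slc2a6 and Pdk3, which belong to related lists. Symbols mark the replicate number, and bars give the mean ± SD of 3 libraries; Slc2a1, Hif1a, Slc2a6 and Pdk3 show no overlap between vehicle and DEK, whereas Pkm, Ldha, Slc16a3 and Vegfa overlap.

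Among the transporters, Slc2a1 (chromosome 4, 119108745 to 119137329, plus strand, mm10) stood at 35.0, 34.9 and 39.1 CPM in vehicle replicates 1, 2 and 3. In DEK replicates 1, 2 and 3 it stood at 46.8, 63.0 and 68.1 CPM. The vehicle libraries lay close together and DEK replicate 1 was the lowest of the treated ones. The main log2 fold change was 0.71 ± 0.16 (SE; adjusted p = 1.00, unadjusted p = 0.00407, edgeR). With the block it was 0.69 ± 0.11 (adjusted p = 0.0107, edgeR), higher in 3 of 3 pairs by 0.42, 0.85 and 0.80. With replicate number 1 or 3 left out of the blocked fit, the log2 fold change was 0.83 and 0.64 (adjusted p = 0.00833 and 0.000108, edgeR). With number 2 left out it was 0.62 and no longer passed (adjusted p = 0.504, edgeR), as was so for every gene of the table.

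Slc2a3 encodes GLUT3, a transporter with high affinity for glucose that is typical of neutrophils and neurons. Its levels were 102, 78.7 and 351 CPM with vehicle and 82.1, 70.5 and 408 CPM with DEK in replicates 1, 2 and 3. Both libraries numbered 3 were far above the rest, and the groups overlapped (main log2 fold change 0.08 ± 0.88, adjusted p = 1.00, edgeR). Per length, as CPM per kilobase of exon (RPKM), the level of Slc2a3 was 1.89, 1.47 and 5.83 times that of Slc2a1 in the vehicle libraries. In the DEK libraries it was 1.14, 0.727 and 3.89 times. Only in DEK replicate 2 was Slc2a1 above Slc2a3 per length. That order turned without division by length (63.0 CPM for Slc2a1 and 70.5 CPM for Slc2a3).

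The lactate transporters differed from each other in how even they were. Slc16a1, which encodes MCT1, was steady at 60.5 to 69.6 CPM in the 6 libraries. Slc16a3, which encodes MCT4, the exporter typical of strongly glycolytic cells, stood at 66.8, 67.8 and 147 CPM with vehicle and 71.8, 91.1 and 225 CPM with DEK. It was higher with DEK in 3 of 3 pairs, and the groups overlapped. Its main log2 fold change was 0.46 ± 0.53 (adjusted p = 1.00, edgeR) and turned to -0.21 without DEK replicate 3. With the block it was 0.38 ± 0.11 (adjusted p = 0.142, edgeR). Per length, Slc16a3 was 1.85 to 3.84 times Slc16a1 with vehicle and 2.04 to 5.56 times with DEK.

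**Figure D2:**
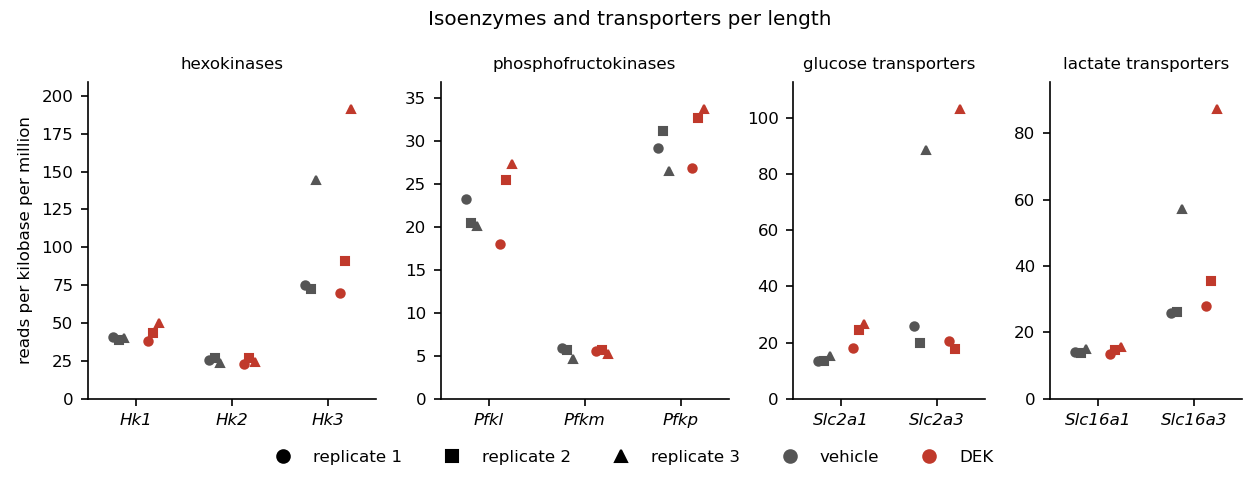
Levels per length in RPKM (CPM per kilobase of exon, vertical axes, from 0) of the hexokinase, phosphofructokinase, glucose transporter and lactate transporter genes in each library; grey is vehicle, red is DEK and the symbol is the replicate number. Hk3, Slc2a3 and Slc16a3 are highest in both libraries numbered 3, and Slc2a1 is higher in each DEK library than in each vehicle library.

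The hexokinases, which phosphorylate glucose, had 0 of 3 genes past the threshold in either fit. Hk3, the form of myeloid cells, led per length at 97.3 ± 40.7 RPKM with vehicle and 117 ± 64.7 RPKM with DEK (SD, n = 3 each). Its libraries had 246, 236 and 472 CPM with vehicle and 229, 297 and 625 CPM with DEK (main log2 fold change 0.27 ± 0.46, SE). Per length it stood 1.82 to 3.82 times above Hk1 in every library, with the highest ratios in the libraries numbered 3. Hk1, the widely expressed form, followed at 39.8 ± 1.08 and 44.0 ± 5.82 RPKM (main log2 fold change 0.14 ± 0.13, SE), and was above Hk2 in 6 of 6 libraries (1.44 to 2.06 times). Hk2, the form most often described as inducible by HIF, had 129 to 148 CPM with vehicle and 127 to 149 CPM with DEK (main log2 fold change -0.03 ± 0.12, SE). Exons of Hk3 overlap those of Unc5a on the opposite strand over 136 bases, and reads there were not counted.

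The middle enzymes carry glucose phosphate to the triose stage, and 0 of 7 passed in either fit. Aldoa, the main aldolase, had the highest level per length among the counts of all members (523 ± 18.5 RPKM with vehicle, 578 ± 41.1 RPKM with DEK, SD, n = 3 each). Aldoc, the aldolase of brain, was 91.9 to 129.6 times lower per length. Its groups did not overlap, though by little: the highest vehicle library had 15.0 CPM and the lowest DEK library 15.1 CPM. The libraries were at 15.0, 14.4 and 11.5 CPM with vehicle and 16.7, 17.6 and 15.1 CPM with DEK (log2 fold change 0.27 ± 0.12 with the block, adjusted p = 0.424, edgeR). Tpi1, the triose isomerase, did not overlap either, at 180.4, 185 and 193 CPM with vehicle and 202, 230.2 and 212 CPM with DEK (main log2 fold change 0.21 ± 0.11, SE; adjusted p = 1.00, edgeR). Gpi1, the glucose phosphate isomerase, was the only member whose DEK libraries all lay below the vehicle ones (763 to 783 CPM against 797 to 841 CPM), a log2 fold change of -0.09 ± 0.11 (SE). In all, groups were apart for 6 members, against 7.19% of all genes. Of these, 5 members (15.2%) had groups apart with DEK higher, namely Aldoc, Tpi1, Slc2a1, P4ha1 and Hif1a, against 3.78% of all genes. Separation in the other direction held for 1 member (3.03%), against 3.41%.

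Phosphofructokinase, the committed step, is made from 3 subunit genes. Pfkp (platelet type) and Pfkl (liver type) were the main forms, at 28.9 ± 2.36 and 21.3 ± 1.71 RPKM with vehicle, and Pfkm (muscle type) was low at 5.39 ± 0.645 RPKM (SD, n = 3 each). Pfkp was above Pfkl in each of the 6 libraries. Pfkl was lower with DEK in pair 1 and higher in pairs 2 and 3 (log2 differences -0.37, 0.31 and 0.44). Exons of Pfkp share 552 bases with Pitrm1 on the opposite strand and those of Tpi1 share 125 with Spsb2, so both values are uncertain. The bifunctional enzymes that set the level of the phosphofructokinase activator, Pfkfb3 and Pfkfb4, did not pass. Pfkfb3 had 79.3 to 113 CPM with vehicle and 71.6 to 117 CPM with DEK. Pfkfb4 had 74.5, 78.1 and 202 CPM with vehicle and 77.7, 81.2 and 214 CPM with DEK, again highest in the libraries numbered 3 (main log2 fold change 0.07 ± 0.56, SE; adjusted p = 1.00, edgeR).

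Of the 6 lower enzymes, which lead from triose phosphate to lactate, 5 were tested and 0 passed in either fit. Pkm, the pyruvate kinase, had 839, 906 and 1055 CPM with vehicle and 989.8, 1165 and 1356 CPM with DEK, higher in 3 of 3 pairs by 0.24, 0.36 and 0.36 (log2). DEK replicate 1 lay below vehicle replicate 3, so the groups overlapped. The main log2 fold change was 0.33 ± 0.17 (adjusted p = 1.00, edgeR), or 0.32 ± 0.10 with the block (adjusted p = 0.186, edgeR). Ldha, the lactate dehydrogenase of glycolytic tissue, had 344, 359 and 406 CPM with vehicle and 385, 466 and 487 CPM with DEK. It too was higher in 3 of 3 pairs and overlapped by 1 library on each side (main log2 fold change 0.27 ± 0.14, adjusted p = 1.00, edgeR; 0.27 ± 0.10 with the block, adjusted p = 0.276, edgeR). Pgk1, an ATP-yielding kinase, had 16.0 to 21.0 CPM with vehicle and 17.4 to 26.8 CPM with DEK, and Pgam1, the phosphoglycerate mutase, 11.1 to 13.4 and 12.7 to 14.5 CPM.

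The lowest levels per length among the enzymes were those of Gapdh and Eno1, and the annotation bears on how their reads were counted. Gapdh, a glyceraldehyde phosphate dehydrogenase often used as a reference gene, had 81, 52 and 117 counts with vehicle and 51, 77 and 138 with DEK, or 1.14 to 3.48 CPM (main log2 fold change -0.13 ± 0.54, SE; adjusted p = 1.00, edgeR). Eno1, the enolase, had 1 count in vehicle replicate 3 and 0 in the other 5 libraries. In the deposited table, 1649 of the 1776 exonic bases of Eno1 also belong to the row Eno1b on the same strand, and reads in exons of more than 1 gene were not counted. For Gapdh, 88% of its longest GENCODE transcript aligned at 97% identity or more over at least 100 bases to 48 genes elsewhere, 46 of them pseudogenes. The share was 85.6% for Eno1, 68.8% for Pgk1, 65.5% for Pkm, 43.1% for Pgam1, 36.3% for Gpi1, 32.1% for Bnip3 and 19.3% for Tpi1. It was 0% for the other 26 members, Slc2a1, Hif1a, Ldha and Aldoa among them. Reads placed at more than 1 site were not counted under the options in the file header. The levels of the genes with copies are therefore uncertain. How many reads each lost was not tested. Pkm stood at 359 ± 42.4 RPKM with vehicle (SD, n = 3) and so was not low.

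**Figure D3:**
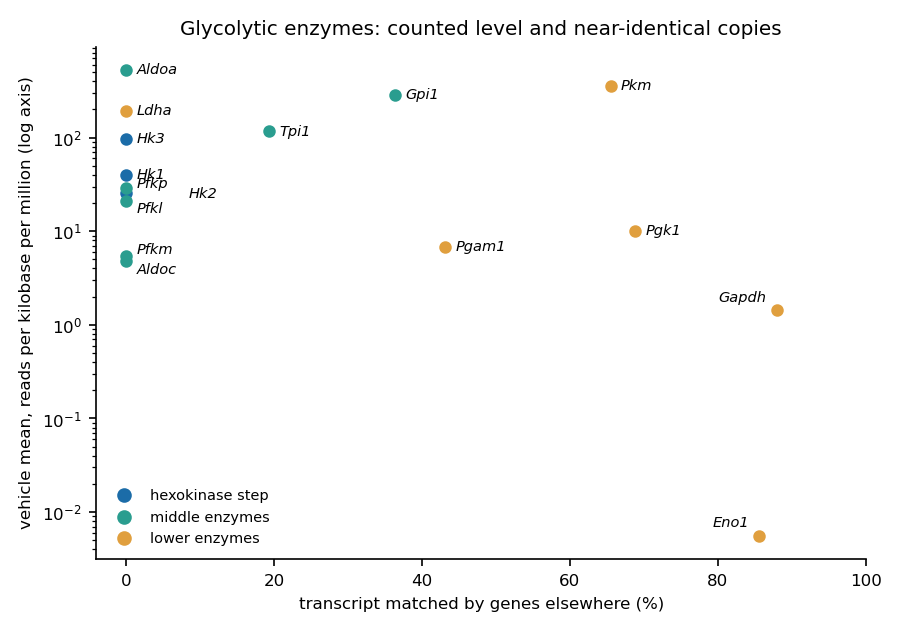
Mean level of the 16 glycolytic enzymes in the vehicle libraries, in RPKM (CPM per kilobase of exon) on a log axis, against the percentage of the longest GENCODE transcript that matches genes elsewhere. Gapdh and Eno1 lie at the far right with the lowest levels, the Eno1 point resting on 1 count, while Pkm is high at 65.5%.

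Hif1a (chromosome 12, 73907867 to 73947530, plus strand, mm10) stood at 218, 179.6 and 204 CPM in vehicle replicates 1, 2 and 3. In DEK replicates 1, 2 and 3 it stood at 277, 301 and 343 CPM. All treated libraries lay above all vehicle libraries. The main log2 fold change was 0.61 ± 0.14 (SE; adjusted p = 0.965, unadjusted p = 0.00339, edgeR). With the block it was 0.61 ± 0.11 (adjusted p = 0.0147, edgeR), higher in 3 of 3 pairs by 0.35, 0.75 and 0.75. DESeq2 without pairing called it as well (adjusted p = 0.0443), the only member it called, against 0.42% of all genes. With replicate number 1 or 3 left out of the blocked fit, the log2 fold change was 0.75 and 0.55 (adjusted p = 0.0174 and 0.000457, edgeR). With number 2 left out it was 0.56 (adjusted p = 0.580, edgeR) and did not pass.

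Markers of some cell types also differed between the groups. The summed monocyte and macrophage markers were higher with DEK by 0.20, 0.20 and 0.21 (log2) in pairs 1, 2 and 3. The sum ranged from 5107 to 5983 CPM with vehicle and from 5920 to 6888 CPM with DEK. Ly6c2 weighed heavily in it, at 1698 to 1892 CPM with vehicle and 2277 to 2761 CPM with DEK. The list did not move as a whole, with 2 of 12 members higher and 2 lower in the blocked fit. Ly6c2 and Cx3cr1 were higher (log2 0.50 and 0.63 with the block). C1qb and C1qc were lower (log2 -1.58 and -1.15 with the block). The summed eosinophil markers were lower by 0.35, 0.67 and 0.48, at 4709 to 14292 CPM with vehicle and 3367 to 11177 CPM with DEK, with 2 of 8 members lower. No marker of either list was at 0 in all libraries. The summed neutrophil markers differed by 0.22, -0.06 and -0.07 in the 3 pairs, with 1 of 11 members higher and 0 lower in the blocked fit. The member was Lcn2, an iron-sequestering granule protein gene, named after its values were seen (log2 0.66 ± 0.12 with the block, adjusted p = 0.0206, edgeR; higher in 3 of 3 pairs, groups overlapping). The part of any of these markers in the rise of Slc2a1 and Hif1a was not tested.

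The 11 genes listed as HIF targets, apart from the enzymes and transporters, had 0 past the threshold in either fit. With Hif1a counted, 4 of 12 lay above 0 and 8 below in the main fit, with a median log2 fold change of -0.11. Vegfa, the gene of the vascular growth factor, had 21.2, 14.9 and 42.8 CPM with vehicle and 14.9, 14.6 and 30.9 CPM with DEK. It was lower in 3 of 3 pairs, but by only 0.03 in pair 2, and the groups overlapped. The main log2 fold change was -0.39 ± 0.48 (adjusted p = 1.00, edgeR), which turned to 0.16 without vehicle replicate 3, and -0.34 ± 0.13 with the block (adjusted p = 0.295, edgeR). Mxi1, which encodes a repressor that opposes MYC, had 99.1, 107 and 206 CPM with vehicle and 90.4, 71.9 and 187 CPM with DEK. Its main log2 fold change of -0.24 ± 0.45 (adjusted p = 1.00, edgeR) turned to 0.18 without vehicle replicate 3 and to 0.015 without DEK replicate 2, and was -0.28 ± 0.11 with the block (adjusted p = 0.318, edgeR).

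The prolyl hydroxylase genes, which lie under HIF control and limit it, were at 49.2 to 64.0 CPM (Egln1) and 38.0 to 40.6 CPM (Egln3) with vehicle. With DEK they were at 49.0 to 58.6 and 28.6 to 40.1 CPM. Bnip3, a mitophagy receptor, had 11.6 to 16.7 and 9.80 to 13.2 CPM, and Ndrg1, a stress-responsive gene of differentiation, 143 to 197 and 134 to 187 CPM. Pdk1, a pyruvate dehydrogenase kinase, had 28.7 to 48.1 and 30.6 to 41.9 CPM. All 5 genes had overlapping groups. P4ha1, a collagen prolyl hydroxylase subunit, did not overlap, at 44.7, 43.9 and 36.8 CPM with vehicle and 47.2, 47.4 and 46.1 CPM with DEK (main log2 fold change 0.17 ± 0.12, SE; adjusted p = 1.00, edgeR).

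The 3 remaining targets were near the limit of detection. Ankrd37, a small ankyrin repeat protein gene, had 9, 16 and 26 counts with vehicle and 18, 36 and 92 with DEK. It was higher in 3 of 3 pairs (main log2 fold change 1.27 ± 0.78; 1.16 ± 0.40 with the block, adjusted p = 0.252, edgeR). The main value was 0.31 without DEK replicate 3 and 1.89 without vehicle replicate 3. Its exons overlap those of Ufsp2 over 49 bases. P4ha2, another collagen prolyl hydroxylase subunit, had 13, 2 and 3 counts with vehicle and 28, 22 and 9 with DEK (main log2 fold change 1.59 ± 0.73; 1.69 ± 0.61 with the block, adjusted p = 0.274, edgeR). The main value was 2.57 without vehicle replicate 1. Adm, the gene of the vasodilator adrenomedullin, had 1 to 17 counts in the 6 libraries.

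**Figure D4:**
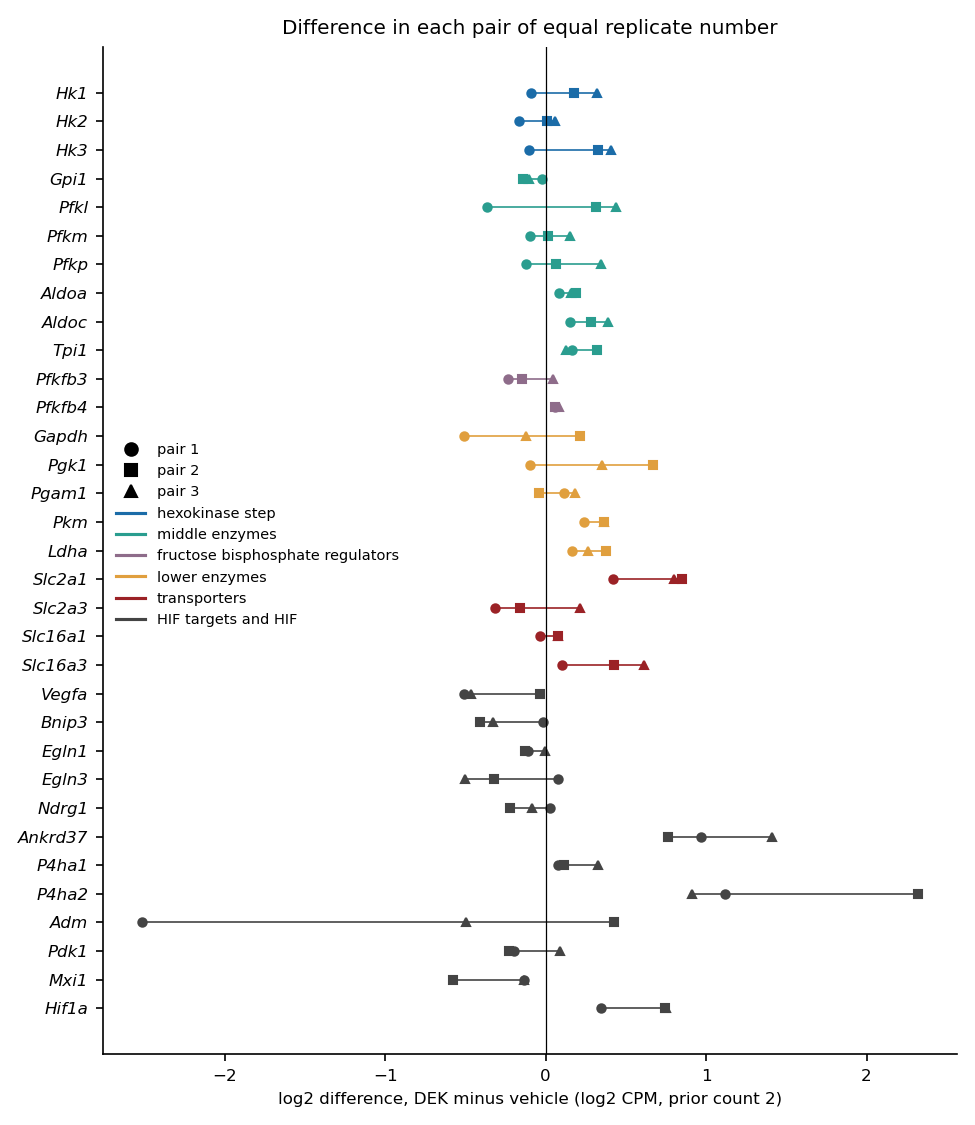
Log2 difference in CPM, DEK minus vehicle, for each of the 33 tested members (rows, coloured by role) in pairs 1, 2 and 3 (symbols), joined by a line. Slc2a1 and Hif1a are among the 12 members right of 0 in all pairs. Most enzymes lie near 0, and the wide spans of Adm and P4ha2 are those of genes with counts of 28 or fewer.

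The bases before the transcription start of 4 members are shown because HIF binds the core ACGTG or GCGTG and because Slc2a1 and Hif1a moved together, while Ldha and Pgk1 are standard examples of glycolytic HIF targets. Each run is the 250 bases upstream of a RefSeq start on GRCm38.p6, read 5′ to 3′ on the gene's strand, with capitals marking ACGTG or GCGTG on either strand (CACGT or CACGC as printed when the match is on the other strand). The windows are chr4:119108495-119108744 (Slc2a1), chr12:73907617-73907866 (Hif1a), chr7:46845554-46845803 (Ldha) and chrX:106186850-106187099 (Pgk1), all on the plus strand.
Slc2a1: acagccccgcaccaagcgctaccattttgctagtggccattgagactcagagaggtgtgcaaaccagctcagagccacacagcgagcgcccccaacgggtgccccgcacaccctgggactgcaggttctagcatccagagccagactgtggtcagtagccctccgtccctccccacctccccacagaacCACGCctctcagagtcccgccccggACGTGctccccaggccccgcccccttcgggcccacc
Hif1a: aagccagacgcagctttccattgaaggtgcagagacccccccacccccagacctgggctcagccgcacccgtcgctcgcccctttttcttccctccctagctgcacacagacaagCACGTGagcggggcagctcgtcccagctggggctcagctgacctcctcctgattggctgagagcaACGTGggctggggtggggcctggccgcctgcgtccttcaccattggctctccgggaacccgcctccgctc
Ldha: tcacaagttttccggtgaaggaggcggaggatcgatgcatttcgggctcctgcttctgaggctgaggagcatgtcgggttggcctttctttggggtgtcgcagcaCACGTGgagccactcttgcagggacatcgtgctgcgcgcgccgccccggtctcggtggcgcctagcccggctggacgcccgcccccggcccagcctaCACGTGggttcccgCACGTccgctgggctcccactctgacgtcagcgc
Pgk1: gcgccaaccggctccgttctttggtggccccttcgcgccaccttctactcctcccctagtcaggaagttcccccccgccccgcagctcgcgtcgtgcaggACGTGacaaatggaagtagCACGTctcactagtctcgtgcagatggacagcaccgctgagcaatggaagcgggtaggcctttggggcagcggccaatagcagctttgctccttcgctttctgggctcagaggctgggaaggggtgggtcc
Slc2a1 held 2 matches, starting 61 and 36 bases before the start. Hif1a held 3, at 135, 134 and 70 bases, of which the pair at 135 and 134 is the palindrome CACGTG, the E-box that MYC and its relatives bind. Ldha held 5, including 2 such palindromes, and Pgk1 held 2, at 150 and 131 bases. In all, 39 of 48 RefSeq starts of the 32 members matched by symbol had at least 1 match (81.2%), against 38.6% of 32851 starts of all genes and 44% of 21263 starts of protein-coding genes. The members' windows were also richer in G and C (median 61.6%, against 52.4% and 55.6%), and several starts of 1 gene share bases. The palindrome was in 6 member windows (12.5%), against 6.02% of all. The members were listed by name as glycolytic genes and HIF targets, so their share of matches is not independent of that choice. A match is a description of the letters only. Gapdh and Bnip3, which did not pass, had 2 and 5. Both have near-identical copies elsewhere, so their levels are uncertain and not passing says little. Any part of HIF in the rise of Slc2a1 was not tested.

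Related genes outside the set gave 2 further rises within pairs and 0 falls among 104 tested. The share called higher was 1.92%, near the 0.869% of all genes, so the count itself does not set these lists apart. Slc2a6, which encodes GLUT6, a hexose transporter of lysosomal membranes in leukocytes, had 75.1, 68.8 and 92.2 CPM with vehicle and 135, 216 and 177 CPM with DEK. That was a 2.21-fold rise with the block (log2 1.15 ± 0.16, adjusted p = 0.0273, edgeR; main adjusted p = 0.494, edgeR). Pdk3, another pyruvate dehydrogenase kinase, had 66.6, 63.8 and 80.6 CPM with vehicle and 115, 115 and 105 CPM with DEK. It rose by 0.67 on the log2 scale with the block (± 0.11, SE; adjusted p = 0.0110, edgeR; main adjusted p = 0.642, edgeR). In both genes all DEK libraries lay above all vehicle libraries. DESeq2 without pairing called both (adjusted p = 0.000587 for Slc2a6 and 0.00777 for Pdk3). Neither passed with replicate number 2 left out, and Pdk3 also lost its call with number 1 left out.

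By list, the rise of Slc2a6 was the only call with the block among 12 other glucose and lactate transporters, and that of Pdk3 the only one among 12 genes of pyruvate entry to mitochondria. The 17 other glycolysis genes had 0 calls, with Pgm2l1, a phosphosugar mutase relative, closest (log2 -0.39, adjusted p = 0.0968 with the block, edgeR). The 38 other HIF targets had 0 calls and a median of -0.04 in the main fit, with Bhlhe40, a transcriptional repressor, closest (log2 -0.37, adjusted p = 0.0920 with the block, edgeR). Exons of Bhlhe40 overlap those of 0610040F04Rik on the opposite strand. The 9 pentose phosphate genes had 0 calls, with G6pdx, the entry dehydrogenase, closest (log2 0.27, adjusted p = 0.267 with the block, edgeR). The 16 HIF subunits and regulators had 0 calls, with Tceb2, an elongin subunit, closest (log2 0.17, adjusted p = 0.542 with the block, edgeR).

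Several members differed more between libraries of 1 group than between DEK and vehicle. In both groups, 6 of 33 members (18.2%) stood at least 2-fold higher in replicate 3 than in the mean of replicates 1 and 2 (on the log2 scale), against 7.6% of all genes. These were Slc2a3, Ankrd37, Pfkfb4, Slc16a3, Gapdh and Vegfa. No member was 2-fold lower in both, against 1.76% of all genes. For Slc2a3 the log2 difference was 1.97 in the vehicle group and 2.42 in the DEK group, and for Pfkfb4 1.40 and 1.43. Adm (0.92 and 1.47), Hk3 (0.97 and 1.26) and Mxi1 (0.995 and 1.22) were just outside the 2-fold limit in the vehicle group. Slc2a1 (0.16 and 0.33) and Hif1a (0.04 and 0.25) differed little in this way. The libraries numbered 3 also had the highest summed neutrophil markers in both groups. Their summed erythroid markers were highest too, at 1675 CPM with vehicle and 2806 CPM with DEK, against 511 to 731 CPM in the rest. Alas2 made up most of these 2 sums, at 1358 CPM with vehicle and 2250 CPM with DEK. Of the 10 erythroid markers, 6 were tested and 3 were at 0 in all libraries. The libraries numbered 3 had the lowest summed eosinophil, basophil and mast cell, B lineage, dendritic cell, and stem and progenitor markers in both groups. Single markers did not all follow, such as Hdc (basophil and mast cell), at 346 CPM with vehicle and 773 CPM with DEK. In the other libraries Hdc had 184 to 217 CPM. Summed neutrophil precursor markers did not share the neutrophil rise (0.874% with vehicle and 0.702% with DEK, against 0.859 to 1.02% elsewhere). The part of any of these markers in the differences was not tested.

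**Figure D5:**
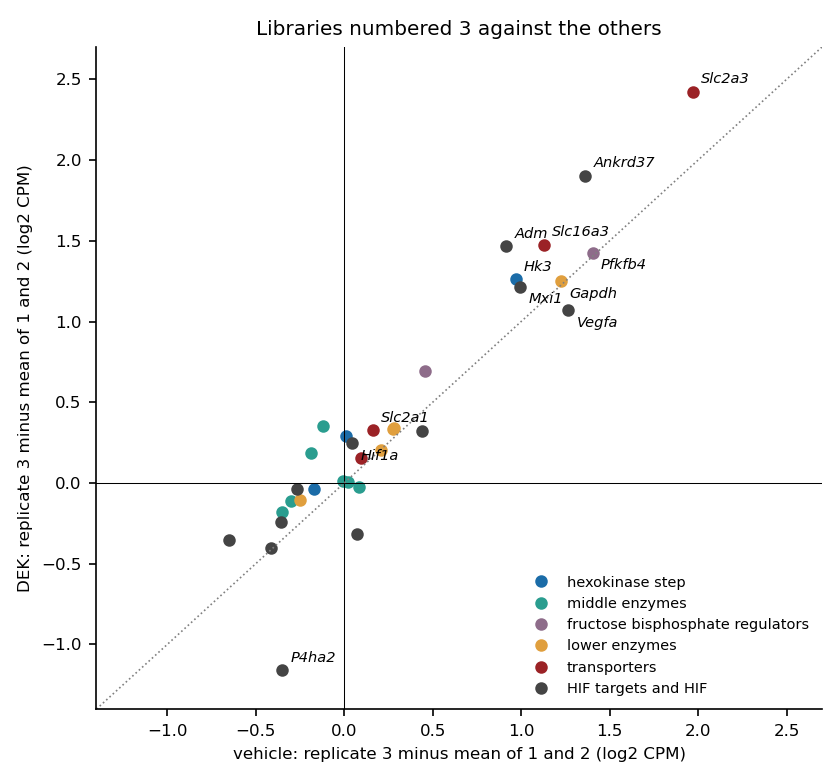
Replicate 3 minus the mean of replicates 1 and 2, in log2 CPM, in the vehicle group (horizontal axis) and the DEK group (vertical axis) for 33 members coloured by role; the dotted line marks equal values. Slc2a3 lies farthest out at 1.97 and 2.42, whereas Slc2a1 and Hif1a lie near the origin.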

How the data were processed

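The deposited table gives read counts per gene, made per the file headers with featureCounts 1.6.1 over exons of mm10, with no option for strand, for reads at several sites or for overlapping genes. Per the submitters' processing notes, Trim Galore, STAR, HTSeq and edgeR were used. Read counts of 6 libraries were analysed in R 4.3.3. Genes were kept by filterByExpr and scaled by TMM. DEK and vehicle were compared with edgeR 4.0.16 (quasi-likelihood, robust, two-sided, Benjamini-Hochberg over all genes tested, threshold 0.05). Standard errors were derived from the test statistic, and log2 CPM used a prior count of 2. RPKM divides scaled CPM by the deposited exon length in kilobases.

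The main fit has no block. Deviations from group means correlated across genes by 0.55, 0.56 and 0.80 for equal replicate numbers 1, 2 and 3, so by the rule of over 0.1 the numbers were taken as pairs, and blocked values are given too. Unequal numbers 1 and 2 also correlated (0.52 and 0.41). With both libraries numbered 3 apart, replicates 1 and 2 deviate the other way in each group, whatever their pairing. The rule therefore cannot decide the pairing of those 2, which is not established. The blocked calls assume it. Alternatives were DESeq2 1.42.0, limma 3.58.1 (voom), DESeq2 size factors, no filter and leaving out libraries. Scripts were tested on simulated data.

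Members and lists were chosen with earlier results of these data known. The naming rule took members past the threshold in either fit or, with fewer than 10, the 10 smallest blocked p, the 5 largest differences of replicate 3 and the isoenzymes, and for each related list up to 3 called genes or the smallest blocked p. Other members are given by range. Sequences are from RefSeq (GRCm38.p6) and copies from GENCODE M21.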

Additional observations from a re-analysis of the deposited data

How the results depend on the processing

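With the replicate block, 177 genes, 2 members and 2 related genes passed in place of 0 in the fit without pairing. DESeq2 called 58 genes, 1 member and 2 related genes. Leaving out replicate number 1 of the blocked fit gave 181 genes, 2 members and 2 related genes (Slc2a6 higher and Fbp1 lower). Leaving out number 3 gave 641 genes, 2 members and 7 related genes, 2 of them higher (Slc2a6 and Pdk3) and 5 lower (Bnip3l, Bpgm, Bhlhe40, Ldhc and Rora). Leaving out number 2 gave 0 genes. The cause was not tested. DESeq2 size factors, no filter and limma-voom gave 0 calls in all 3 sets, and at an unadjusted p under 0.05 the main fit held 360 genes. Leaving out 1 library of the unpaired fit gave 0 to 1 genes, the 1 without DEK replicate 3, and a median member log2 fold change of 0.0238 to 0.19. Over the same left-out libraries, values ran from -0.21 to 0.94 for Slc16a3, from -0.84 to 0.16 for Vegfa and from -0.76 to 0.18 for Mxi1. They ran from 0.31 to 1.89 for Ankrd37 and from 1.20 to 2.57 for P4ha2. Slc2a1 stayed between 0.59 and 0.85 and Hif1a between 0.52 and 0.68. Without division by length, no compared pair of isoenzymes changed order in the vehicle means, but single libraries did: Slc2a3 and Slc2a1 in DEK replicate 2, Pfkfb3 and Pfkfb4 in vehicle replicates 1 and 2, and Egln1 and Egln3 in vehicle replicate 3. Counts of 28 or fewer limit P4ha2 and Adm.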
